A study of Mus musculus with 45 samples.

Results

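The TGF-beta and BMP family was followed here through 58 genes of 55367 gene symbols in the count table. The family was chosen with earlier results of these data known, and its members were then picked by a rule on gene symbols. They comprise TGF-beta, activin, BMP and GDF ligands, the type I, type II and type III receptors, the Smad proteins, the Id proteins, the protease Bmp1, and the secreted antagonists follistatin, gremlin, noggin and chordin. Female BALB/c mice, 7 to 8 weeks old when the study began, carried a porous polycaprolactone scaffold under the skin, an implant that collects host cells, and the healthy controls carried it too. Tumor-bearing mice then received cells of 1 of 3 sister lines, all derived from 1 spontaneous mammary tumor, in a mammary fat pad: 67NR, which does not metastasize, 4T07, which invades without forming metastases, or 4T1, which metastasizes. Control mice received no tumor cells. On day 14, scaffold, lung and spleen were taken from all 4 groups and the primary tumor from the 3 tumor-bearing groups, which gives 15 groups of 3 libraries and 45 libraries in all. Each tumor group stands for 1 cell line, no normal mammary gland was sequenced, and a host tissue can hold tumor cells as well as its own. The study describes its replicates as separate mice, and the labels do not say which libraries of different tissues came from the same mouse.

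Ligands of this family are secreted as dimers, many of them in an inactive or trapped form, and bind pairs of type II and type I receptor kinases. TGF-betas and activins signal mainly through Smad2 and Smad3. BMPs and only some GDFs signal through Smad1, Smad5 and Smad9 (also called Smad8), and both arms share Smad4. Smad6, Smad7 and the Id genes are well-known transcriptional targets of these signals, and follistatin, noggin, chordin and gremlin bind ligands outside the cell. In tumors the family is known for its part in fibroblast activation and invasion, and in healthy lung for the BMP signaling of blood vessels through Bmpr2 and Acvrl1.

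Levels are given in CPM, the count of a gene scaled to a library total of 1000000 counts, and since a 3' tag library gives about 1 tag per transcript whatever its length, levels are compared between libraries of 1 gene and not between genes. Library totals ran from 3491888 to 8175380 counts with a median of 5149589, so 3 counts, taken as the floor, correspond to 0.367 to 0.859 CPM. Intervals and floors cover counting error only. Of the 58 members, 29 exceeded 3 counts in all 45 libraries. Gdf1, Gdf7 and Inhbc had no counts in any library, and Bmp15 and Inhbe never exceeded 3 counts in a library. A gene was tested in a tissue when it had more than 10 counts there, which 44 members did in tumors, 50 in scaffolds, 52 in lungs and 47 in spleens. A gene passed the threshold when the quasi-likelihood test of edgeR gave an adjusted p under 0.05 in tumors or 0.10 in other tissues and the fold change exceeded 2, and all log2 fold changes below are from that test, with their standard error after ±. In a bulk tissue, fewer cells of a type and less RNA per cell cannot be told apart.

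Some libraries stood apart from the rest of their tissue. In the 3 4T07 lungs, 6 of 6 lung epithelial markers were detected, and their summed level was 5697 to 14299 CPM against 34914 to 37035 CPM in control lungs. Summed markers of B cells (359 to 462 against 129.8 to 159.7 CPM), platelets (975 to 1443 against 70.9 to 107 CPM) and exocrine pancreas (166 to 225 against 0.971 to 1.08 CPM) were higher in the same libraries, so results in 4T07 lungs are also given on a lung-restricted scale. Neutrophil markers summed to 22976 to 27428 CPM in 4T07 lungs and 11643 to 27439 CPM in 4T1 lungs, against 227 to 302 CPM in control lungs. The 4T07 scaffold replicate 1 held 8392 CPM of neutrophil and 11250 CPM of erythroid markers, more than any other scaffold. The 4T07 tumor replicate 1 likewise held the most neutrophil and erythroid markers of any tumor. By a chi-square per gene between replicate counts, 4T1 scaffold replicate 2 stood apart from its mates (31.5 and 28.4, against 7.82 between them).

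In primary tumors, several secreted ligands and antagonists of the family were read far higher with 4T07 or 4T1 than with 67NR cells. Against 67NR tumors, Inhba, Grem1, Fst, Bmp7 and Tgfb2 rose by over 2 on the log2 scale in both 4T07 and 4T1 tumors, and all 5 were read low in each 67NR library. In 4T07 against 67NR tumors, 14 of 44 tested members were higher (31.8%, against 17.1% of all genes tested) and 1 was lower (2.27%, against 11.8% of all genes). In 4T1 against 67NR tumors, 15 were higher (34.1%, against 11.6%) and 2 were lower (4.55%, against 9.07%). Between 4T1 and 4T07 tumors, 4 were higher (9.09%, against 3.82%) and 2 lower (4.55%, against 4.79%) in 4T1. The median log2 fold change over tested members was 0.56, 0.76 and 0.22 in these comparisons, beside 0.16, 0.09 and -0.05 over all genes tested. The first pair of comparisons shares the 67NR tumors, so these counts are not independent of each other. The 14 members left untested in tumors were Bmp5, Bmp6, Bmp8b, Bmp10, Bmp15, Gdf1, Gdf2, Gdf5, Gdf7, Inha, Inhbc, Inhbe, Nog and Smad9.

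The 250 bases before the annotated start of Inhba and Grem1, the members with the largest rise in 4T07 tumors, are shown because reads of these genes moved most, and those of Bmpr2 and Id2 because these members fell with a large group of receptors and targets in 4T07 lungs. Sequences are from RefSeq on GRCm38.p6 and are printed 5' to 3' on the strand of the gene, ending at the base before the start. Inhba lies on the plus strand (chr13:16011601-16011850), Grem1 on the minus strand (chr2:113758649-113758898), Bmpr2 on the plus strand (chr1:59764029-59764278) and Id2 on the minus strand (chr12:25096093-25096342). Capitals mark matches to any of 3 letter strings that Smad proteins are known to bind, CAGAC, GTCTAGAC and GGCGCC, searched on both strands, none of which contains another.
Inhba: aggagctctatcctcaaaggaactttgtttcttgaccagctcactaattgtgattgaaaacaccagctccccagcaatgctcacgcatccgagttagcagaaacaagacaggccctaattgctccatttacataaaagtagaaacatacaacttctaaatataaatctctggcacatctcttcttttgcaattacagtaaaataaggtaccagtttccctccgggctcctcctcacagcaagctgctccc
Grem1: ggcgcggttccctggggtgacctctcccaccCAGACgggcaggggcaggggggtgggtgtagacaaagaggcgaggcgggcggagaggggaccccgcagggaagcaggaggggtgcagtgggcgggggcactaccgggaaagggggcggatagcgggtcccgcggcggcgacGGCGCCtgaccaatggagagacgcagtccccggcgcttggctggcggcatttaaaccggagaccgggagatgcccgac
Bmpr2: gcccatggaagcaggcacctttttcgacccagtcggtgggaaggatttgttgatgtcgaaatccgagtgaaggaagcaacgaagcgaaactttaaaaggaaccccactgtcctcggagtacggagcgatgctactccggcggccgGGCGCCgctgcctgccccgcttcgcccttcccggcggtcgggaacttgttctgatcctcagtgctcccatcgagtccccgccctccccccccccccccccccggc
Id2: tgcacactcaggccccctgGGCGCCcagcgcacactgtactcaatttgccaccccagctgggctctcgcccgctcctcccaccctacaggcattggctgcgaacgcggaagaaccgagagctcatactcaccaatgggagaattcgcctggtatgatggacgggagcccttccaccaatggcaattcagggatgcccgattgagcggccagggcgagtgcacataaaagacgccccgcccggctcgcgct

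Grem1 held CAGAC 219 bases and GGCGCC 78 bases before the start, Bmpr2 held GGCGCC at 105 bases and Id2 at 231 bases, and Inhba held none of these letters in this window. GC content was 43.2% in the Inhba window and 72% in that of Grem1. Over 32851 RefSeq promoter windows of the same length, 42.2% held CAGAC, 0.167% GTCTAGAC and 9.59% GGCGCC. Promoters were matched for 40 of the 58 members, some with more than 1 start, and 22 of their 48 windows held CAGAC, 10 held GGCGCC and 0 held GTCTAGAC. A match describes letters and not binding, and its absence says nothing about the factor.

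Among the activin subunits, Inhba, whose product pairs to form activin A, was at 3.76, 3.08 and 6.49 CPM in the 3 67NR tumors, 172, 277 and 261 CPM in 4T07 tumors and 372, 317 and 513 CPM in 4T1 tumors. Every 4T07 tumor lay above every 67NR tumor and below every 4T1 tumor. The log2 fold change was 5.48 ± 0.32, adjusted p = 1.61e-08, in 4T07 and 6.30 ± 0.32, adjusted p = 3.14e-09, in 4T1 against 67NR tumors. For 4T1 against 4T07 tumors it was 0.81 ± 0.23, adjusted p = 0.0277, which met the adjusted p but not the fold. Inhbb, the subunit of activin B, was at 11.6, 15.1 and 16.4 CPM in 67NR, 29.1, 28.1 and 27.7 CPM in 4T07 and 33.1, 32.0 and 37.8 CPM in 4T1 tumors. It passed in 4T1 against 67NR tumors (1.06 ± 0.20, adjusted p = 9.16e-04), a call lost without 67NR replicate 1 or 4T1 replicate 3, and in 4T07 its log2 fold change was 0.73 ± 0.20, adjusted p = 0.00983.

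The activin-binding protein follistatin rose beside its ligand. Fst was at 0.806, 0.280 and 2.26 CPM in 67NR, 32.5, 33.7 and 25.4 CPM in 4T07 and 20.8, 21.1 and 39.3 CPM in 4T1 tumors, with log2 fold changes of 4.51 ± 0.45, adjusted p = 1.78e-06, and 4.38 ± 0.45, adjusted p = 2.65e-06, against 67NR. The 4T07 and 4T1 tumors overlapped, with a log2 fold change of -0.13 ± 0.30, adjusted p = 0.826.

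Grem1 encodes gremlin, which binds BMP2, BMP4 and BMP7. It was at 0.538, 0 and 0 CPM in 67NR tumors, 2 counts in all, 14.9, 9.43 and 10.7 CPM in 4T07 and 10.1, 7.99 and 18.6 CPM in 4T1 tumors. From the counts, the ratio to 67NR was 63.3 (95% interval 17.2 to 527) in 4T07 and 65.1 (95% interval 17.8 to 542) in 4T1 tumors, and the fitted log2 fold changes were 5.56 ± 0.68, adjusted p = 1.45e-05, and 5.67 ± 0.68, adjusted p = 1.25e-05. Chordin (Chrd, 0.201 to 2.37 CPM over the 9 tumors) did not pass in any of the 3 comparisons, and noggin (Nog) was left untested at 0 CPM in 67NR, 0 to 0.726 CPM in 4T07 and 0.183 to 0.432 CPM in 4T1 tumors.

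**Figure D1:**
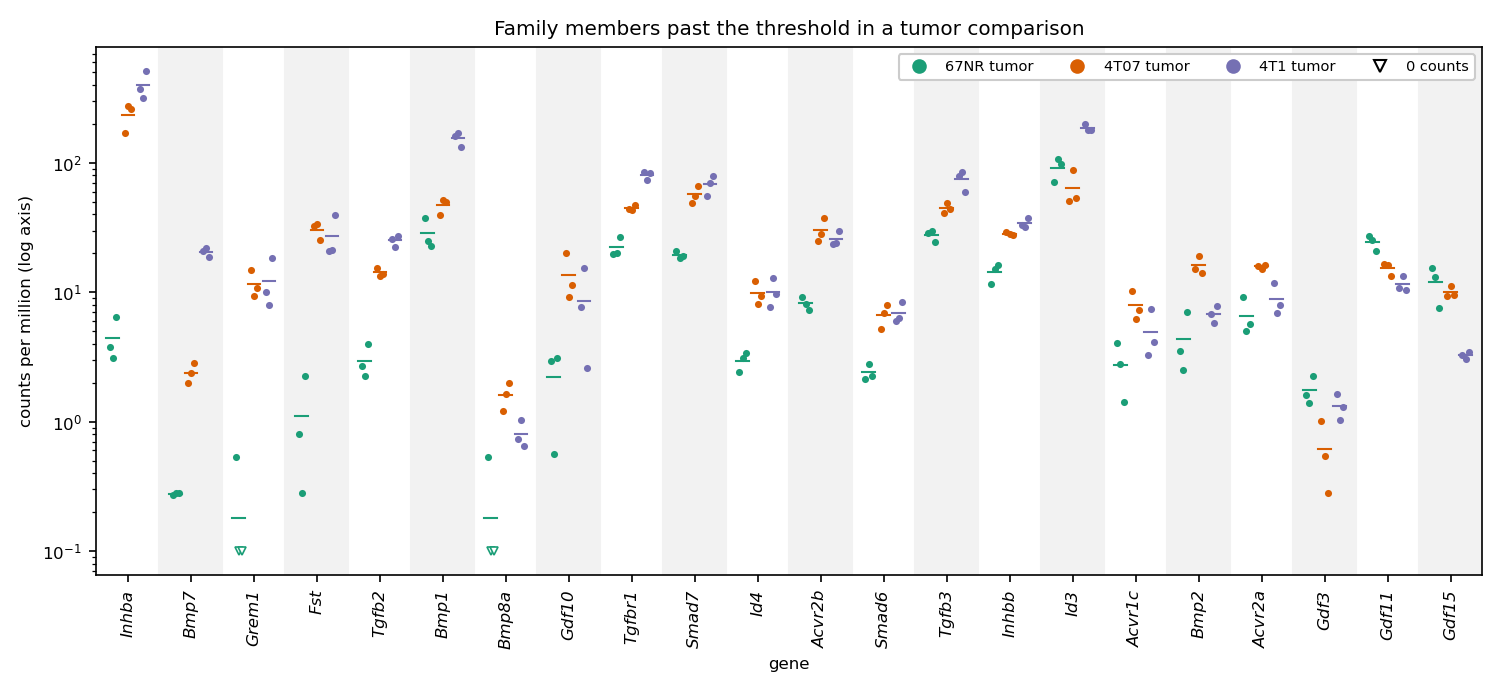
Level of 22 members past the threshold in at least 1 tumor comparison, in CPM on a log axis, with 1 point for each of the 3 tumors of each line, a short line at the group mean, open triangles for libraries with 0 counts, and genes ordered by log2(4T1/67NR). Inhba, Grem1, Fst and Bmp7 show the widest gap between 67NR tumors and the others, and Gdf15 and Gdf11 lie lower in 4T1 than in 67NR tumors.

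Of the 5 BMP ligands tested in tumors, Bmp7 and Bmp2 passed in 4T1 against 4T07 tumors. Bmp7 was at 0.269, 0.280 and 0.282 CPM in 67NR, 1 count in each library, 2.01, 2.36 and 2.82 CPM in 4T07 and 20.8, 21.9 and 18.8 CPM in 4T1 tumors, 3 levels with no overlap. The ratio of counts to 67NR was 8.49 (95% interval 2.66 to 43.3) in 4T07 and 74.3 (95% interval 25.2 to 362) in 4T1, and between 4T1 and 4T07 the log2 fold change was 3.15 ± 0.28, adjusted p = 2.79e-06. Fitted against 67NR it was 2.74 ± 0.52, adjusted p = 6.48e-04, and 5.89 ± 0.40, adjusted p = 3.83e-08. Bmp2 followed another order and was highest in 4T07 tumors. Its levels were 3.49, 2.52 and 7.06 CPM in 67NR, 15.3, 19.1 and 14.1 CPM in 4T07 and 6.77, 5.74 and 7.77 CPM in 4T1 tumors. It rose in 4T07 against 67NR (1.64 ± 0.33, adjusted p = 0.00111) and was lower in 4T1 than in 4T07 tumors (-1.21 ± 0.31, adjusted p = 0.0153), the second call lost without 4T07 replicate 2, 4T1 replicate 1 or 4T1 replicate 2. Bmp8a was near the floor, at 0.538, 0 and 0 CPM in 67NR, 1.20, 1.63 and 1.98 CPM in 4T07 and 0.731, 1.02 and 0.648 CPM in 4T1 tumors. Its count ratio in 4T07 against 67NR was 8.49 (95% interval 2.09 to 74.5), and its fitted log2 fold change of 2.71 ± 0.89, adjusted p = 0.0242, was lost in DESeq2 and without 4 of the 6 libraries. Bmp4 was at 2.15, 5.32 and 4.52 CPM in 67NR, 4.62, 3.63 and 3.10 CPM in 4T07 and 4.57, 4.51 and 4.53 CPM in 4T1 tumors and had log2 fold changes of -0.32 ± 0.38, adjusted p = 0.53, in 4T07 and -0.02 ± 0.38, adjusted p = 0.977, in 4T1 against 67NR. Bmp3 passed in none of the 3 tumor comparisons.

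Bmp1 carries the family's name but encodes an astacin protease that cleaves procollagens. It was at 37.6, 24.9 and 22.9 CPM in 67NR, 39.3, 51.7 and 49.7 CPM in 4T07 and 162, 171 and 132 CPM in 4T1 tumors. It rose in 4T1 against both 67NR (2.25 ± 0.20, adjusted p = 6.64e-07) and 4T07 (1.77 ± 0.19, adjusted p = 2.07e-05).

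Of the GDF ligands, 1 rose and 3 fell in at least 1 tumor comparison. Gdf15, a stress-induced and distant member of the family, was at 15.3, 13.1 and 7.62 CPM in 67NR, 9.43, 11.2 and 9.60 CPM in 4T07 and 3.29, 3.07 and 3.45 CPM in 4T1 tumors, and every 4T1 tumor lay below the rest. In 4T1 it fell relative to 67NR (-2.07 ± 0.31, adjusted p = 9.95e-05) and relative to 4T07 tumors (-1.57 ± 0.30, adjusted p = 0.00275). Gdf11, a close relative of myostatin, was at 27.1, 25.2 and 20.9 CPM in 67NR, 16.5, 16.1 and 13.3 CPM in 4T07 and 10.8, 13.3 and 10.4 CPM in 4T1 tumors, a fall in 4T1 of -1.28 ± 0.21, adjusted p = 2.67e-04. Gdf10 was uneven between replicates, at 2.96, 0.560 and 3.11 CPM in 67NR, 20.3, 9.25 and 11.3 CPM in 4T07 and 7.68, 15.4 and 2.59 CPM in 4T1 tumors. Its rise in 4T07 (2.37 ± 0.59, adjusted p = 0.00472) came with no overlap, whereas in 4T1 (1.74 ± 0.60, adjusted p = 0.0373) the groups overlapped and the call was lost without 5 of the 6 libraries. Gdf3 was at 1.61, 1.40 and 2.26 CPM in 67NR and 1.00, 0.544 and 0.282 CPM in 4T07 tumors, and its fall (-1.67 ± 0.60, adjusted p = 0.0354) was lost in DESeq2, with no count filter and without 4 of the 6 libraries.

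The 3 TGF-betas did not move alike. Tgfb2 was at 2.69, 2.24 and 3.95 CPM in 67NR, 15.5, 13.4 and 13.8 CPM in 4T07 and 26.0, 22.5 and 27.0 CPM in 4T1 tumors, 3 separate ranges, with log2 fold changes of 2.01 ± 0.28, adjusted p = 3.92e-05, and 2.88 ± 0.27, adjusted p = 1.03e-06, against 67NR. Tgfb3 was at 28.8, 29.9 and 24.6 CPM in 67NR, 40.9, 49.3 and 43.7 CPM in 4T07 and 78.8, 84.5 and 60.0 CPM in 4T1 tumors, and passed in 4T1 against 67NR only (1.22 ± 0.18, adjusted p = 1.03e-04). Tgfb1, the form most made by immune cells, was at 10.8, 8.67 and 8.47 CPM in 67NR, 10.0, 11.1 and 14.4 CPM in 4T07 and 13.7, 14.3 and 17.7 CPM in 4T1 tumors. The log2 fold changes of Tgfb1, 0.09 ± 0.25, adjusted p = 0.795, and 0.52 ± 0.25, adjusted p = 0.127, did not pass. Whether the 3 genes differ from each other in their change was not tested.

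All 12 receptors were tested in tumors, and 4 rose in at least 1 comparison while none fell. The type II activin receptor Acvr2b was at 9.14, 8.11 and 7.34 CPM in 67NR, 24.7, 28.1 and 37.8 CPM in 4T07 and 23.4, 24.0 and 29.6 CPM in 4T1 tumors, with log2 fold changes of 1.63 ± 0.24, adjusted p = 7.25e-05, and 1.45 ± 0.24, adjusted p = 2.62e-04. Tgfbr1, the type I receptor for TGF-beta, was at 19.9, 20.1 and 26.8 CPM in 67NR, 43.8, 43.4 and 47.1 CPM in 4T07 and 84.7, 73.8 and 83.3 CPM in 4T1 tumors. It passed in 4T1 against 67NR (1.66 ± 0.18, adjusted p = 4.91e-06), and in 4T07 its log2 fold change was 0.76 ± 0.18, adjusted p = 0.00364, under the fold threshold. Acvr2a (9.14, 5.04 and 5.65 CPM in 67NR and 15.9, 15.2 and 16.4 CPM in 4T07 tumors) and Acvr1c (4.03, 2.80 and 1.41 CPM and 10.2, 6.17 and 7.34 CPM) rose in 4T07 against 67NR tumors. Both calls were fragile, that of Acvr2a (1.01 ± 0.29, adjusted p = 0.0105) lost in DESeq2, with other size factors and without 5 of the 6 libraries, and that of Acvr1c (1.27 ± 0.42, adjusted p = 0.0242) without 3 of the 6. Tgfbr2, the type II receptor for TGF-beta, was at 31.2, 42.0 and 70.3 CPM in 67NR, 64.0, 52.8 and 49.4 CPM in 4T07 and 79.4, 102 and 89.8 CPM in 4T1 tumors (0.71 ± 0.24, adjusted p = 0.0342). Bmpr2 was at 62.6, 65.5 and 74.0 CPM in 67NR, 93.1, 108 and 105 CPM in 4T07 and 122, 115 and 136 CPM in 4T1 tumors (0.68 ± 0.16, adjusted p = 0.00387), so both met the adjusted p but not the fold. Tgfbr3, at 36.1 ± 5.41, 41.8 ± 9.34 and 33.0 ± 11.5 CPM (mean ± SD, n = 3) in 67NR, 4T07 and 4T1 tumors, and Acvrl1, at 11.9 ± 2.87, 20.9 ± 3.46 and 13.0 ± 2.45 CPM, passed in none of the 3 comparisons.

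Of the signal-carrying Smads, 5 were tested in tumors and none passed in any tumor comparison. Smad5 came nearest to the fold, with log2 fold changes of 0.94 ± 0.17, adjusted p = 5.86e-04, in 4T1 and 0.88 ± 0.17, adjusted p = 7.67e-04, in 4T07 against 67NR. Smad3 was at 145, 113 and 101 CPM in 67NR, 103, 138 and 123 CPM in 4T07 and 205, 194 and 211 CPM in 4T1 tumors, with a log2 fold change of 0.79 ± 0.17, adjusted p = 0.00507, in 4T1 against 4T07. Both inhibitory Smads rose against 67NR in both lines. Smad7 was at 20.7, 18.5 and 19.2 CPM in 67NR, 49.2, 55.3 and 66.6 CPM in 4T07 and 55.8, 70.3 and 79.0 CPM in 4T1 tumors (1.30 ± 0.20, adjusted p = 8.86e-05, and 1.61 ± 0.19, adjusted p = 1.43e-05). Smad6 was at 2.15, 2.80 and 2.26 CPM in 67NR, 5.22, 6.89 and 7.90 CPM in 4T07 and 6.03, 6.35 and 8.42 CPM in 4T1 tumors (1.21 ± 0.35, adjusted p = 0.0123, and 1.32 ± 0.35, adjusted p = 0.00896). The 67NR tumors lay below all others in both genes, and the 4T07 and 4T1 tumors overlapped.

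The Id proteins, which block basic helix-loop-helix factors, gave a mixed picture. Id4 was at 2.42, 3.08 and 3.39 CPM in 67NR, 12.2, 8.16 and 9.31 CPM in 4T07 and 7.68, 12.9 and 9.71 CPM in 4T1 tumors, and rose in both against 67NR (1.49 ± 0.33, adjusted p = 0.00208, and 1.56 ± 0.33, adjusted p = 0.00179). Id3 was at 71.0, 107 and 97.4 CPM in 67NR, 50.6, 88.2 and 53.3 CPM in 4T07 and 199.9, 179 and 180.2 CPM in 4T1 tumors, and was higher in 4T1 than in 4T07 tumors (1.59 ± 0.22, adjusted p = 2.19e-04). Against 67NR its log2 fold change was -0.77 ± 0.22, adjusted p = 0.0118, in 4T07 and 0.81 ± 0.22, adjusted p = 0.0105, in 4T1 tumors. Id1, at 34.9, 44.5 and 37.8 CPM in 67NR, 56.8, 41.9 and 49.1 CPM in 4T07 and 68.8, 67.6 and 71.9 CPM in 4T1 tumors, and Id2, at 85.5, 54.0 and 62.4, 112, 96.5 and 96.8 and 88.5, 96.1 and 90.2 CPM in the same order, did not pass in any tumor comparison.

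Other genes of the pathway were counted from lists chosen with earlier results of these data known. They held 62 genes outside the members, 51 of which could be tested in tumors. In 4T07 against 67NR tumors 19 were higher and 1 lower, beside 17.1% and 11.8% of all genes (median log2 fold change 0.74, beside 0.16 over all genes), and in 4T1 against 67NR tumors 24 were higher and 1 lower, beside 11.6% and 9.07% of all genes (median 1.23, beside 0.09). Between 4T1 and 4T07, 10 were higher and 2 lower in 4T1, beside 3.82% and 4.79% of all genes (median 0.39, beside -0.05). Of 14 listed TGF-beta targets, 10 were higher and 1 lower in 4T07, and 11 higher and 1 lower in 4T1 against 67NR, beside the same shares of all genes. They included Ccn2, a matricellular protein (5.56 in 4T07 and 5.52 in 4T1 against 67NR), Pmepa1, a feedback inhibitor of Smad signaling (2.86 and 3.62), and Skil, a Smad corepressor (1.57 and 2.38). The contractile genes Tagln (3.03 and 3.86) and Acta2 (1.61 and 2.89) and the matrix genes Col1a1 (2.73 and 3.18), Fn1 (1.31 and 1.88) and Postn (1.37 and 2.50) also rose. The cell cycle inhibitor Cdkn1a fell (-2.18 and -2.19). Junb, a transcription factor gene, passed in 4T1 (1.86). Of these targets, Acta2 (1.28), Postn (1.13) and Junb (1.09) were also higher in 4T1 than in 4T07 tumors.

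Genes for storing and freeing latent TGF-beta rose in part. Ltbp4 (2.60 in 4T07 and 2.88 in 4T1 against 67NR), Ltbp2 (2.01 and 1.63), Thbs1 (3.17 and 3.72) and Itgb8 (4.29 and 2.70) were higher in both lines. Ltbp3 (1.23) and Lrrc32 (2.04) passed in 4T1 only, and both were higher in 4T1 than in 4T07 tumors (1.49 and 1.41), as was Ltbp1 (1.30), whereas Itgb8 was lower (-1.59). Among further extracellular modulators, Fstl1 (2.22 and 2.66), Dcn (2.08 and 1.92) and Bmper (1.67 and 1.58) rose in both lines, Chrdl1 in 4T07 (1.77), and Nbl1 (2.18) and Twsg1 (1.06) in 4T1. Nbl1 was also higher in 4T1 than in 4T07 tumors (1.77). Of the co-receptors, Eng, which works with Acvrl1, rose in 4T1 against 67NR (1.31) and 4T07 (1.74), Rgmb rose in 4T07 against 67NR (1.18), and Rgma was lower in 4T1 than in 4T07 (-1.30). Of 12 listed BMP targets, 11 of them tested, 2 were higher in 4T07 and 3 in 4T1 against 67NR, and none was lower. Of all genes, 17.1% were higher in 4T07 and 11.6% in 4T1, so the 2 of 11 in 4T07 lie near the background. They were Smad6 and the homeobox gene Msx1 (1.90 and 3.07) in both lines and the bone transcription factor Runx2 (1.55) in 4T1. Id3 and Msx1 (1.18) were higher in 4T1 than in 4T07 tumors.

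Markers of other cell types moved with these genes. All 8 fibroblast markers were detected in each line, with summed levels of 930.4 to 1138 CPM in 67NR, 4806 to 7122 CPM in 4T07 and 5751 to 8904 CPM in 4T1 tumors, and 2 of them, Col1a1 and Dcn, are also in the lists above. Epithelial markers (5 of 5 detected) summed to 16.7 to 29.1 CPM in 67NR, 152 to 216 CPM in 4T07 and 982 to 1096 CPM in 4T1 tumors, and bone and cartilage markers, with Acan and Sp7 at 0 in all 9 tumors and Ibsp at 0 in 67NR, to 0 to 0.282, 3.61 to 6.53 and 53.9 to 86.5 CPM. Endothelial markers (8 of 8) summed to 252 to 382 CPM in 67NR, 247 to 413 CPM in 4T07 and 256 to 272 CPM in 4T1 tumors, ranges that overlap between 67NR and both other lines. Neutrophil markers (7 of 7) summed to 18.3 to 371 CPM in 67NR, 1005 to 5085 CPM in 4T07 and 519 to 809.5 CPM in 4T1 tumors, and erythroid markers (6 of 6) to 466 to 678, 2023 to 10253 and 825 to 1059 CPM, with 4T07 replicate 1 the highest in both. The part of these markers in the changes of the family was not tested. Without 4T07 replicate 1, 14 members passed in 4T07 against 67NR tumors, with Acvr1c and Acvr2a lost and 1 other gained, and 5 in 4T1 against 4T07 tumors. In every fit with another tool, normalization or filter and with each library left out, 11 of the 15 calls in 4T07 against 67NR, 15 of the 17 in 4T1 against 67NR and 4 of the 6 in 4T1 against 4T07 tumors held.

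Control mice show how the family is laid out in the host tissues without a tumor. In control scaffolds against control lungs, 8 of 51 tested members were higher (15.7%, against 14.7% of all genes) and 20 were lower (39.2%, against 17.9%). In control scaffolds against control spleens, 20 were higher (39.2%, against 16.9%) and 10 lower (19.6%, against 17.5%), and in control lungs against control spleens 25 were higher (49.0%, against 20.2%) and 7 lower (13.7%, against 19.7%). Each tissue enters a pair of these comparisons, so the counts are not independent.

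BMP receptors, Smad6 and several BMP ligands were highest in healthy lung. Acvrl1, an endothelial type I receptor for BMP9 and BMP10, was at 286, 330.0 and 297 CPM in control lungs, 26.2, 30.7 and 31.6 CPM in control scaffolds and 18.8, 14.5 and 16.0 CPM in control spleens (4.16 ± 0.17, adjusted p = 1.35e-10, for lung against spleen). Its type II partner Bmpr2 was at 793, 791 and 816 CPM in lungs, 103, 137 and 117 CPM in scaffolds and 55.7, 53.8 and 50.2 CPM in spleens (3.87 ± 0.17, adjusted p = 2.30e-10). Smad6, the inhibitory Smad of the BMP arm, was at 73.2, 71.1 and 86.8 CPM in lungs, 1.89, 1.27 and 1.57 CPM in scaffolds and 2.52, 3.69 and 4.53 CPM in spleens (4.39 ± 0.22, adjusted p = 5.91e-10). In all 3 genes, every lung lay above every scaffold and spleen. Bmp4 was at 149, 133 and 244 CPM in lungs, 5.66, 1.74 and 3.94 CPM in scaffolds and 10.5, 18.2 and 16.2 CPM in spleens, with log2 fold changes of 3.52 ± 0.30, adjusted p = 1.51e-07, for lung against spleen and -5.35 ± 0.35, adjusted p = 8.39e-09, for scaffold against lung. Bmp5 was at 13.4, 12.1 and 13.8 CPM in lungs and had no counts in control spleens, at least 20.4-fold higher against the floor of 3 counts per library (adjusted p = 8.69e-08). Bmp3 (4.82, adjusted p = 1.37e-10), Bmp6 (3.34, adjusted p = 2.57e-05), Smad9 (3.90, adjusted p = 2.52e-06), Tgfb2 (4.23, adjusted p = 4.35e-10) and Acvr2b (2.49, adjusted p = 1.68e-06) were also higher in lung than in spleen on the log2 scale. Gdf5 (52 counts over the lungs) had no counts in control spleens, at least 4.69-fold higher (adjusted p = 7.87e-05). Further members higher in lung than in spleen were Bmpr1b (3.99, adjusted p = 4.70e-04, on 3 counts in spleens, a count ratio of 17.8, 95% interval 5.83 to 88.5), Acvr1 (2.28, adjusted p = 1.70e-04), Tgfb3 (2.27, adjusted p = 8.91e-06), Bmpr1a (2.14, adjusted p = 2.10e-07), Bmp7 (2.12, adjusted p = 0.0114), Id1 (1.83, adjusted p = 2.03e-07), Smad7 (1.82, adjusted p = 1.69e-06), Fst (1.60, adjusted p = 0.00545), Bmp1 (1.42, adjusted p = 6.65e-05), Acvr2a (1.40, adjusted p = 3.23e-05), Gdf9 (1.39, adjusted p = 0.0476), Tgfbr2 (1.15, adjusted p = 8.20e-04) and Smad5 (1.07, adjusted p = 2.82e-05).

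Gdf6, Gdf11 and Tgfb1 were highest in healthy spleen. Gdf6, a BMP-like ligand, was at 22.1, 23.3 and 19.2 CPM in control spleens, 0.697, 0.180 and 0.809 CPM in control lungs and 0.210, 1.11 and 0.787 CPM in control scaffolds (-5.22 ± 0.39, adjusted p = 3.39e-08, for lung against spleen). Gdf11 was at 21.2, 33.7 and 46.1 CPM in spleens, 11.5, 11.0 and 8.74 CPM in lungs and 6.71, 6.97 and 8.97 CPM in scaffolds, and Tgfb1 at 15.3, 18.5 and 19.2, 4.36, 3.43 and 5.34 and 5.87, 6.97 and 8.03 CPM in the same order. In both genes the spleens lay above the other tissues, with log2 fold changes for lung against spleen of -1.72 ± 0.25, adjusted p = 3.96e-05, and -2.04 ± 0.24, adjusted p = 3.68e-06. Grem1 (-3.45, adjusted p = 1.30e-05), Gdf3 (-3.99, adjusted p = 2.69e-04) and Bmp8a (-1.52, adjusted p = 0.0411) were lower in lung than in spleen too, Gdf3 on 2 counts in control lungs with a count ratio of spleen to lung of 18.5 (95% interval 4.71 to 160.2). Nog passed as lower in lung (-2.13, adjusted p = 0.0975) on 2 against 8 counts with overlapping groups, a ratio of spleen to lung of 4.95 (95% interval 0.987 to 47.8). In lung against spleen, the calls of Nog, Gdf9, Bmp8a, Smad5 and Tgfbr2 were each lost when at least 1 library was left out, and those of Nog and Gdf9 also in DESeq2.

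Activin subunits and follistatin were highest in control scaffolds. Inhba was at 41.1, 43.2 and 33.7 CPM in control scaffolds, 4.36, 7.21 and 3.08 CPM in lungs and 6.21, 2.77 and 2.59 CPM in spleens (3.23 ± 0.32, adjusted p = 7.86e-07, against lung and 3.49 ± 0.33, adjusted p = 6.16e-07, against spleen). Fst was at 15.1, 23.0 and 16.1, 2.09, 3.61 and 2.43 and 0.971, 0.461 and 1.08 CPM in the same order (2.95 ± 0.29, adjusted p = 7.36e-07, and 4.55 ± 0.35, adjusted p = 6.51e-08). Inhbb was at 14.9, 19.2 and 24.6, 3.84, 4.69 and 5.66 and 3.69, 1.62 and 2.80 CPM (2.25 ± 0.27, adjusted p = 7.28e-06, and 2.99 ± 0.30, adjusted p = 1.02e-06). The scaffolds lay above both other tissues in all 3 genes, as they did in Gdf3, with 28.1, 23.4 and 36.4 CPM in scaffolds, 0.174, 0.180 and 0 CPM in lungs and 1.36, 1.38 and 3.67 CPM in spleens. The count ratio of Gdf3 to lung was 257 (95% interval 70.7 to 2127). Against lung, Grem1 (4.33, adjusted p = 8.65e-07), Bmp8a (2.29, adjusted p = 0.00284), Acvr1c (1.82, adjusted p = 4.39e-04) and Tgfbr1 (1.03, adjusted p = 9.62e-05) were the other members higher in scaffold.

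Members lower in scaffold than in lung on the log2 scale included Bmp6 (-5.73, adjusted p = 2.05e-06, on 2 counts in scaffolds, with a count ratio of lung to scaffold of 71.9, 95% interval 19.5 to 599), Bmp5 (-5.50, adjusted p = 2.48e-07), Smad6 (-5.40, adjusted p = 2.40e-10), Bmp4, Gdf5 (-5.07, adjusted p = 1.67e-04, on 1 count in scaffolds, a ratio of 51.9, 95% interval 8.92 to 2089.9), Smad9 (-4.42, adjusted p = 1.30e-06), Bmp3 (-3.55, adjusted p = 6.04e-10), Acvrl1 (-3.15, adjusted p = 7.40e-10), Smad7 (-2.79, adjusted p = 3.81e-08), Bmpr2 (-2.53, adjusted p = 5.91e-09), Id3 (-2.39, adjusted p = 3.87e-07), Id1 (-2.12, adjusted p = 5.66e-08), Tgfb2 (-1.89, adjusted p = 3.79e-07), Acvr2b (-1.79, adjusted p = 3.31e-05), Bmpr1a (-1.45, adjusted p = 9.62e-06), Id4 (-1.38, adjusted p = 0.0182), Bmp2 (-1.29, adjusted p = 7.22e-04) and Acvr1b (-1.10, adjusted p = 0.00173). Gdf2, or BMP9, passed as lower in scaffold than in lung and spleen (adjusted p = 0.0516 and 0.0442) on 0 against 8 and 7 counts, which is within the floor, so no fold is given. Against spleen, scaffolds were higher in members that included Bmpr1b (2.89, adjusted p = 0.0124, on 3 counts in spleens, a count ratio of 7.02, 95% interval 2.15 to 36.2), Bmp7 (2.37, adjusted p = 0.00588), Tgfb2 (2.34, adjusted p = 2.02e-07), Acvr1c (2.22, adjusted p = 1.43e-04), Bmp1 (2.21, adjusted p = 8.26e-07), Tgfb3 (1.89, adjusted p = 7.99e-05), Acvr1 (1.87, adjusted p = 0.00123), Tgfbr1 (1.67, adjusted p = 9.64e-07), Gdf9 (1.59, adjusted p = 0.0285), Bmpr2 (1.34, adjusted p = 6.00e-06), Bmp3 (1.28, adjusted p = 3.12e-04), Tgfbr2 (1.10, adjusted p = 0.00142), Tgfbr3 (1.08, adjusted p = 5.67e-04), Acvrl1 (1.01, adjusted p = 1.31e-04) and Gdf3 (3.95, adjusted p = 1.98e-07). Bmp5 passed there (adjusted p = 0.0513) on 4 counts against 0, again within the floor. Members lower in scaffold than in spleen were Gdf6 (-4.66, adjusted p = 1.08e-07), Bmp6 (-2.39, adjusted p = 0.0403, on 2 counts in scaffolds, a count ratio of spleen to scaffold of 6.79, 95% interval 1.48 to 63.0), Bmp2 (-1.98, adjusted p = 1.28e-05), Gdf11 (-1.96, adjusted p = 1.74e-05), Bmp4 (-1.83, adjusted p = 7.84e-04), Id4 (-1.71, adjusted p = 0.00496), Id3 (-1.45, adjusted p = 6.28e-05), Tgfb1 (-1.16, adjusted p = 6.26e-04) and Smad6 (-1.01, adjusted p = 0.014). Leaving out 1 library ended the calls of Acvr1b, Gdf2, Id4 and Tgfbr1 in scaffold against lung and those of Acvrl1, Bmp5, Bmp6, Gdf2, Gdf9, Smad6, Tgfbr2 and Tgfbr3 in scaffold against spleen. Endothelial markers (8 of 8 detected) summed to 3384 to 3824 CPM in control lungs, 339 to 377 CPM in scaffolds and 464 to 636 CPM in spleens, and fibroblast markers (8 of 8) to 1308 to 1516, 8343 to 12096 and 406 to 456 CPM, and their part in these differences was not tested.

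**Figure D2:**
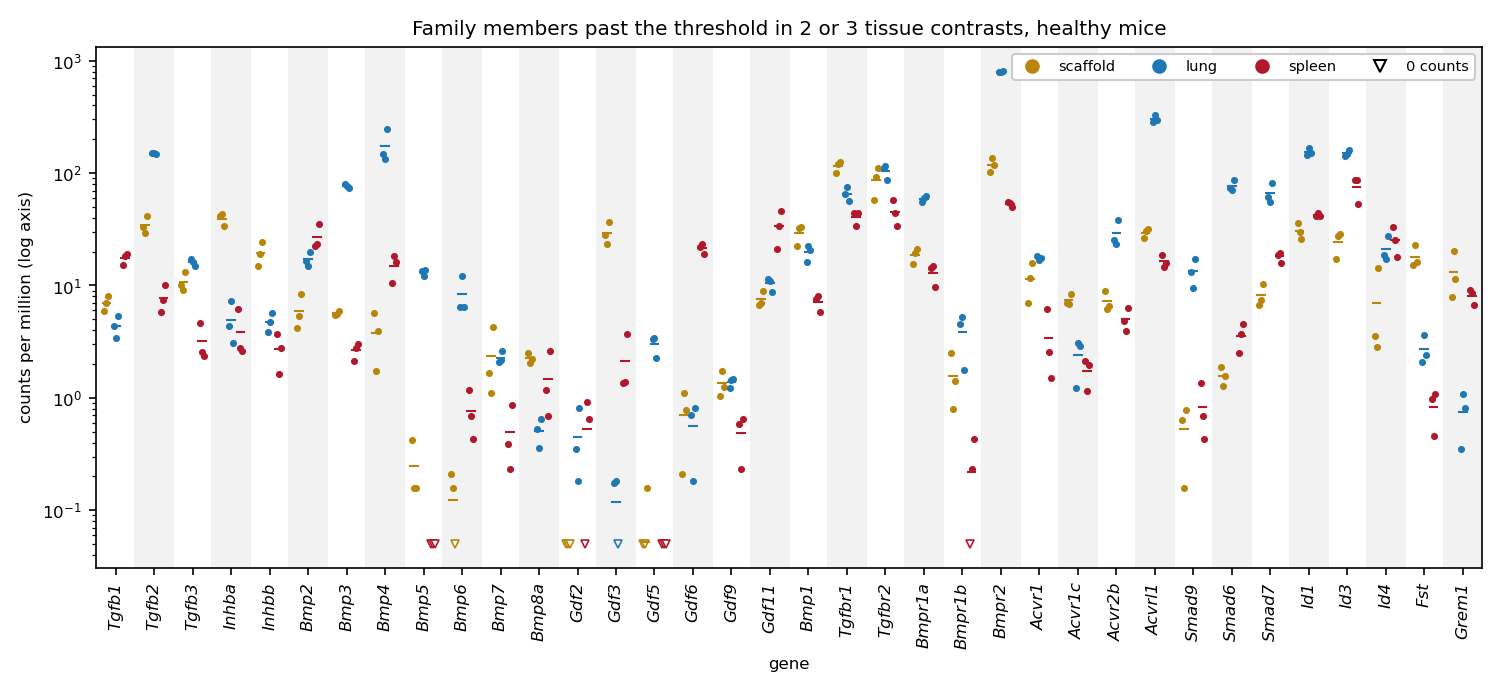
Level in CPM on a log axis of 36 members past the threshold in at least 2 comparisons between control tissues, with 1 point per library for 3 control scaffolds, 3 control lungs and 3 control spleens. Acvrl1, Bmpr2, Smad6 and Bmp4 lie highest in lungs, Inhba, Fst and Gdf3 in scaffolds, and Gdf6 and Gdf11 in spleens.

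In scaffolds few members passed the threshold with a tumor, and in 67NR and 4T1 scaffolds few or none of all genes did. Against control scaffolds, 0 of 50 tested members passed in 67NR (0% of all genes, and 1 member at an unadjusted p under 0.05 in edgeR and 0 calls in DESeq2), 2 in 4T07 (4%, against 7.44% of all genes) and 0 in 4T1 (against 0.0226% of all genes, with 8 members at an unadjusted p under 0.05 in edgeR and 1 call in DESeq2). The 8 members under the count filter were Bmp5, Bmp8b, Bmp15, Gdf1, Gdf2, Gdf7, Inhbc and Inhbe. Acvr2b was at 9.02, 6.18 and 6.61 CPM in control, 9.42, 8.34 and 10.8 CPM in 67NR, 22.3, 27.9 and 22.8 CPM in 4T07 and 13.7, 22.6 and 11.9 CPM in 4T1 scaffolds. It rose in 4T07 (1.60 ± 0.25, adjusted p = 0.00106), and in 4T1 the scaffolds also lay above the controls, with a log2 fold change of 1.02 ± 0.25, adjusted p = 0.195. Tgfb1 was at 5.87, 6.97 and 8.03 CPM in control, 14.4, 7.22 and 9.66 CPM in 67NR, 15.0, 12.4 and 20.3 CPM in 4T07 and 16.3, 12.5 and 8.62 CPM in 4T1 scaffolds, and rose in 4T07 (1.05 ± 0.28, adjusted p = 0.0236), a call lost without control replicate 1 or 4T07 replicate 3. Between 4T1 and 4T07 scaffolds, 1 of 50 members passed (2%, against 1% of all genes). It was Id3, at 20.5, 17.3 and 14.8 CPM in 4T07 and 30.0, 60.0 and 22.1 CPM in 4T1 scaffolds (1.10 ± 0.28, adjusted p = 0.0817), lost without any 4T07 scaffold or without 4T1 replicate 2. Inhbb was at 14.9, 19.2 and 24.6 CPM in control, 33.8, 42.1 and 36.8 CPM in 4T07 and 35.4, 49.6 and 38.1 CPM in 4T1 scaffolds. Neither group overlapped the controls, and the log2 fold changes were 0.80 ± 0.19, adjusted p = 0.013, and 0.95 ± 0.19, adjusted p = 0.157. Neutrophil markers (7 of 7 detected) summed to 269 to 1755 CPM in control, 1919 to 8392 CPM in 4T07 and 1982 to 3039 CPM in 4T1 scaffolds. Both calls in 4T07 scaffolds held without 4T07 replicate 1.

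The remaining ligands, receptors, targets and antagonists whose levels were followed in every group are given for scaffolds as mean ± SD over 3 libraries, in the order control, 67NR, 4T07 and 4T1, and none of these differences from control passed. Tgfb2 was at 34.7 ± 6.32, 40.8 ± 8.04, 35.8 ± 6.51 and 30.3 ± 6.65 CPM, and Tgfb3 at 10.7 ± 2.10, 13.1 ± 3.98, 8.80 ± 0.787 and 12.8 ± 3.46 CPM. Bmp2 was at 5.97 ± 2.14, 8.23 ± 0.333, 9.45 ± 2.61 and 9.63 ± 3.61 CPM, and Bmp4 at 3.78 ± 1.97, 4.77 ± 0.873, 4.37 ± 2.12 and 3.69 ± 0.704 CPM. Gdf15 was at 5.64 ± 0.201, 4.94 ± 1.12, 9.52 ± 4.35 and 9.90 ± 4.27 CPM. Receptors of both arms were read well above the floor in scaffolds. Tgfbr1 was at 115 ± 13.3, 107 ± 14.5, 99.6 ± 5.96 and 116 ± 9.32 CPM, Tgfbr2 at 86.9 ± 26.9, 102 ± 19.2, 86.3 ± 13.6 and 123 ± 41.6 CPM, and Tgfbr3 at 36.3 ± 3.54, 45.7 ± 7.97, 34.3 ± 9.25 and 44.5 ± 19.1 CPM. Bmpr2 was at 119 ± 17.2, 113 ± 3.17, 123 ± 4.84 and 128 ± 7.90 CPM, and Acvrl1 at 29.5 ± 2.90, 39.7 ± 5.70, 30.5 ± 3.76 and 30.1 ± 7.50 CPM. Smad6, high in lung, was near the floor in scaffolds, whereas the Id genes were read in all groups. Smad6 was at 1.58 ± 0.311, 1.68 ± 0.997, 1.07 ± 0.322 and 1.42 ± 0.388 CPM, and Smad7 at 8.18 ± 1.95, 9.20 ± 1.24, 13.1 ± 1.56 and 9.40 ± 2.05 CPM. Id1 was at 30.6 ± 4.79, 29.2 ± 2.28, 24.6 ± 3.54 and 32.6 ± 9.13 CPM, and Id2 at 199 ± 23.2, 183 ± 12.3, 133 ± 3.98 and 191 ± 17.5 CPM. Id3 was at 24.6 ± 6.42, 28.8 ± 5.76, 17.5 ± 2.90 and 37.4 ± 20.0 CPM, and Id4 at 6.91 ± 6.43, 7.36 ± 2.90, 5.46 ± 1.20 and 8.97 ± 5.48 CPM. Of the antagonists, Fst and Grem1 were read in every scaffold and Nog only near the floor. Fst was at 18.0 ± 4.29, 19.1 ± 3.68, 13.9 ± 2.63 and 20.3 ± 9.61 CPM, Grem1 at 13.2 ± 6.44, 25.6 ± 7.70, 16.5 ± 6.97 and 22.1 ± 11.8 CPM, and Nog at 0.298 ± 0.132, 0.163 ± 0.164, 0.420 ± 0.190 and 0.347 ± 0.157 CPM.

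In lungs the 3 lines gave different pictures. Against control lungs, 2 of 52 tested members passed in 67NR (3.85%, against 4.25% of all genes). In 4T07, 6 were higher (11.5%, against 15.3%) and 20 lower (38.5%, against 13.7%), and in 4T1, 3 were higher (5.77%, against 3.56%) and 2 lower (3.85%, against 1.05%). Between 4T1 and 4T07 lungs, 18 were higher in 4T1 (34.6%, against 11.6%) and 4 lower (7.69%, against 11.9%). The median log2 fold change of tested members was -0.71 in 4T07 and -0.09 in 4T1 against control lungs, beside -0.01 and -0.003 over all genes. The 6 members left untested were Bmp8b, Bmp15, Gdf1, Gdf7, Inhbc and Inhbe.

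Receptors and BMP targets fell together in the 4T07 lungs. Bmpr2 was at 793, 791 and 816 CPM in control, 786, 705 and 721 CPM in 67NR, 224, 158 and 277 CPM in 4T07 and 695, 727 and 862 CPM in 4T1 lungs (-1.80 ± 0.17, adjusted p = 3.72e-08, in 4T07). Acvrl1 was at 286, 330.0 and 297 CPM in control, 304, 381 and 314 CPM in 67NR, 65.6, 64.2 and 108 CPM in 4T07 and 325, 324 and 317 CPM in 4T1 lungs (-1.88 ± 0.18, adjusted p = 3.86e-08). In both genes the 3 4T07 lungs lay far below the 9 others, which overlapped. Further receptors that fell were Bmpr1a (-1.64, adjusted p = 2.24e-08), Bmpr1b (-1.97, adjusted p = 0.00313), Acvr1 (-1.40, adjusted p = 4.08e-05), Tgfbr1 (-1.09, adjusted p = 5.80e-06) and Tgfbr2 (-1.32, adjusted p = 1.52e-06). Smad6 (-2.20, adjusted p = 1.72e-07), Smad9 (-1.74, adjusted p = 4.61e-05), Smad5 (-1.06, adjusted p = 1.74e-05), Id1 (-1.29, adjusted p = 5.71e-06), Id2 (-1.61, adjusted p = 1.82e-07) and Id3 (-1.31, adjusted p = 5.28e-06) fell among the signaling proteins and targets. Id2, for one, was at 358, 321 and 242 CPM in control, 201, 215 and 179 CPM in 67NR, 98.9, 92.1 and 99.1 CPM in 4T07 and 217, 177 and 250.5 CPM in 4T1 lungs. Among ligands and antagonists, Bmp3 (-1.62, adjusted p = 1.10e-06), Bmp5 (-2.42, adjusted p = 1.67e-07), Bmp6 (-2.71, adjusted p = 6.45e-06), Gdf5 (-3.25, adjusted p = 1.73e-04), Tgfb2 (-1.42, adjusted p = 5.54e-06) and Tgfb3 (-1.13, adjusted p = 3.57e-04) fell as well. The calls of Tgfb3 and Bmp8a were lost without 4T07 replicate 2, that of Tgfbr1 without control replicate 2, and that of Smad5 without either library. Of the listed pathway targets, 8 of 11 tested BMP targets, 4 of them members, and 6 of 14 TGF-beta targets were lower, and none was higher, beside 13.7% of all genes lower and 15.3% higher.

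Many of these falls were of a size also seen in genes read mainly in lung, and their cause was not tested. Genes at 5 CPM or more in control lungs and over 20 times their level in control spleens, here called lung-restricted, made up 9.41% to 10.2% of the counts in control lungs and 1.88% to 4.14% in 4T07 lungs. Over 538 such genes that are not members, the median log2 fold change in 4T07 against control lungs was -1.62, with quartiles of -2.05 and -1.20, and 535 were below 0. Over 221 spleen-restricted genes, defined the other way round, it was 5.13. Of the members, 3 (Bmp3, Bmp5 and Smad6) met the lung-restricted definition. Among the named falls, Gdf5, Bmp6, Bmp5 and Smad6 lay below the quartiles of lung-restricted genes, and Tgfbr1, Tgfb3 and Smad5 lay above them. Endothelial markers (8 of 8 detected) summed to 1143 to 1880.2 CPM in 4T07 and 3384 to 3824 CPM in control lungs. Both sets were defined in the control lungs that enter this comparison. With libraries scaled to 541 lung-restricted genes instead, an alternative chosen after the data had been seen, the median of all genes shifted to a log2 fold change of 1.71, and 24 of 52 members were higher, beside 67.8% of all genes, and 2 were lower, beside 0.656%, in 4T07 against control lungs. On that scale Bmpr2 was at -0.13 and Acvrl1 at -0.20, neither past the threshold, and 11 of the 20 falls turned positive, among them Id1 (0.37), Id2 (0.16), Id3 (0.42), Tgfbr1 (0.65) and Tgfbr2 (0.39). Gdf5, at -1.70 (adjusted p = 0.0325), and Bmp6, at -1.08 (adjusted p = 0.0254), remained lower on both scales.

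**Figure D3:**
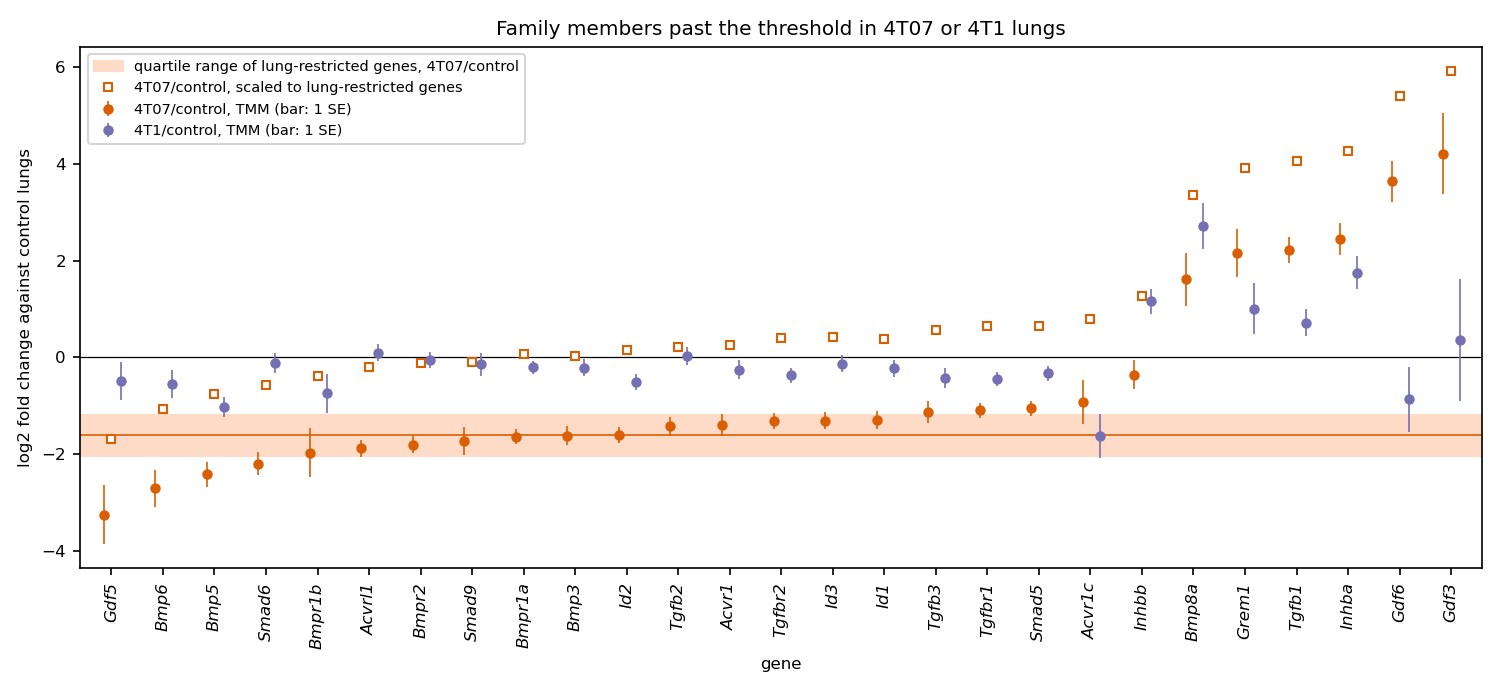
Log2 fold change of 27 members against control lungs in 4T07 and 4T1 lungs on the TMM scale (filled points, bars of 1 SE) and in 4T07 lungs also on the scale of lung-restricted genes (open squares), with the line and band marking the median and quartiles of the lung-restricted genes in 4T07 lungs on the TMM scale. In 4T07 lungs most members that fell lie near that band of -2.05 to -1.20, while Inhba, Tgfb1, Grem1, Gdf3, Gdf6 and Bmp8a lie above 0 on both scales.

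Members that rose in 4T07 lungs on the TMM scale rose on the lung-restricted scale too. The latter moved genes in general upward, with 67.8% of all genes higher, so the second rise is not separate support. Inhba was at 4.36, 7.21 and 3.08 CPM in control, 7.09, 6.01 and 7.38 CPM in 67NR, 27.3, 29.1 and 19.5 CPM in 4T07 and 17.4, 23.7 and 7.35 CPM in 4T1 lungs. Its log2 fold change was 2.45 ± 0.34, adjusted p = 5.63e-06, in 4T07 and 1.75 ± 0.34, adjusted p = 0.00246, in 4T1 lungs, or 4.27 and 2.01 on the lung-restricted scale. Every 4T07 and 4T1 lung lay above every control lung. Of the 4T07 and 4T1 lungs, 4T1 replicate 3 was the lowest in Inhba and also in summed neutrophil markers, at 11643 CPM. The part of neutrophils in this rise was not tested. Tgfb1 was at 4.36, 3.43 and 5.34 CPM in control, 5.75, 5.20 and 7.52 CPM in 67NR, 23.7, 23.1 and 11.7 CPM in 4T07 and 6.92, 7.48 and 7.05 CPM in 4T1 lungs, with log2 fold changes of 2.21 ± 0.27, adjusted p = 9.72e-07, in 4T07 and 0.72 ± 0.28, adjusted p = 0.134, in 4T1. Grem1 was at 0.349, 1.08 and 0.809 CPM in control, 3.81, 3.72 and 2.17 CPM in 4T07 and 1.13, 1.55 and 1.80 CPM in 4T1 lungs (2.15 ± 0.50, adjusted p = 0.00133, in 4T07). Gdf6, which in control mice was read mainly in spleen, was at 0.697, 0.180 and 0.809 CPM in control and 7.20, 7.64 and 6.29 CPM in 4T07 lungs (3.64 ± 0.42, adjusted p = 5.58e-07). Gdf3, low in control lungs with 2 counts, was at 2.75, 2.68 and 1.74 CPM in 4T07 lungs, a count ratio of 20.9 (95% interval 5.37 to 179.9) (4.21 ± 0.83, adjusted p = 3.06e-04, as fitted). Of the members that rose, Tgfb1, Bmp8a, Grem1, Gdf3 and Gdf6 were all higher in control spleens than in control lungs. Inhba also rose in 4T07 spleens, each of which lay above every 4T07 lung. The link of these rises to the spleen-restricted genes was not tested.

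In 4T1 lungs the calls were Inhba, Inhbb and Bmp8a upward and Acvr1c and Bmp5 downward. Bmp8a was at 0.523, 0.361 and 0.647 CPM in control, 0.766, 0.325 and 1.01 CPM in 67NR, 1.48, 2.27 and 0.868 CPM in 4T07 and 4.19, 3.67 and 2.55 CPM in 4T1 lungs (2.72 ± 0.47, adjusted p = 7.60e-04, in 4T1 and 1.61 ± 0.55, adjusted p = 0.0221, in 4T07). Inhbb was at 3.84, 4.69 and 5.66 CPM in control, 10.3, 8.77 and 7.38 CPM in 67NR, 3.18, 2.27 and 5.21 CPM in 4T07 and 10.5, 12.4 and 8.54 CPM in 4T1 lungs (1.16 ± 0.26, adjusted p = 0.008, in 4T1). The 4T1 lungs lay above the control lungs in both genes, and both calls held on the lung-restricted scale (2.95 and 1.41). Bmp8a in control lungs was near the floor, which was 0.486 to 0.541 CPM there, so the size of its rise is uncertain. Bmp5 was at 13.4, 12.1 and 13.8 CPM in control, 6.90, 6.17 and 6.80 CPM in 67NR, 2.12, 1.86 and 3.04 CPM in 4T07 and 5.15, 6.64 and 7.20 CPM in 4T1 lungs, so all 3 tumor-bearing groups lay below the controls. Its log2 fold change was -1.09 ± 0.21, adjusted p = 0.00411, in 67NR and -1.03 ± 0.21, adjusted p = 0.00371, in 4T1 lungs, the latter lost without control replicate 1 or 4T1 replicate 1 and on the lung-restricted scale (-0.80). Acvr1c, an activin receptor of adipose tissue, was at 1.22, 3.07 and 2.91 CPM in control and 0.966, 0.706 and 0.600 CPM in 4T1 lungs (-1.63 ± 0.46, adjusted p = 0.0354), lost without control replicate 2 or 4T1 replicate 2 and on the lung-restricted scale. Adipocyte markers (4 of 5 detected) summed to 80.7 to 233 CPM in control and 34.5 to 46.6 CPM in 4T1 lungs, and their part was not tested. In 67NR lungs the other call was Bmp10, a ligand made in the heart, with no counts in control lungs and 0, 0.162 and 10.3 CPM in 67NR lungs, at least 6.73-fold higher (adjusted p = 0.0582). It rested on 67NR replicate 3, in which cardiac muscle markers summed to 466 CPM against 87.3 and 117 CPM in the other 67NR lungs, and it was lost in DESeq2 and without any 1 control lung.

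The comparison of 4T1 with 4T07 lungs shares the 4T07 libraries with the one above. Acvrl1 (1.98, adjusted p = 2.92e-08) and Bmpr2 (1.75, adjusted p = 8.43e-08), with the levels given above, were higher in 4T1 without overlap. Smad6 (2.07, adjusted p = 5.02e-07), Smad9 (1.59, adjusted p = 1.60e-04), Tgfb2 (1.46, adjusted p = 5.49e-06), Bmpr1a (1.43, adjusted p = 2.05e-07), Bmp3 (1.40, adjusted p = 8.51e-06), Bmp5 (1.39, adjusted p = 3.26e-04), Bmp6 (2.15, adjusted p = 1.69e-04), Gdf5 (2.76, adjusted p = 0.00152), Acvr1 (1.15, adjusted p = 4.55e-04), Bmpr1b (1.23, adjusted p = 0.0763), Id1 (1.07, adjusted p = 7.05e-05), Id2 (1.10, adjusted p = 2.54e-05), Id3 (1.17, adjusted p = 2.55e-05), Inhbb (1.51, adjusted p = 2.11e-04) and Bmp8a (1.10, adjusted p = 0.0368) were higher in 4T1 on the log2 scale. Of these, Acvr1, Bmp3, Bmp5, Bmp8a, Bmpr1a, Bmpr1b, Id1, Id2 and Id3 turned negative on the lung-restricted scale, where the median of all genes was -1.45. Gdf5, at 1.44 (adjusted p = 0.0797), kept its call there, whereas Acvrl1 (0.53), Bmpr2 (0.29), Smad6 (0.68), Smad9 (0.18), Tgfb2 (0.05), Bmp6 (0.75) and Inhbb (0.13) lost theirs. In all, 1 member was higher in 4T1 on that scale, beside 0.428% of all genes, and 18 were lower, beside 61.7%. Tgfb1 (-1.50, adjusted p = 6.30e-05), Grem1 (-1.15, adjusted p = 0.0414), Gdf3 (-3.86, adjusted p = 4.21e-04) and Gdf6 (-4.51, adjusted p = 1.40e-07) were lower in 4T1 than in 4T07 lungs, and on the lung-restricted scale they were at -3.11, -2.69, -5.39 and -6.04. For Gdf3, on 3 counts in 4T1 lungs, the count ratio of 4T07 to 4T1 was 16.0 (95% interval 5.02 to 81.2). Leaving out 1 library ended the calls of Acvr1 (4T07 replicate 1), Id2 (4T1 replicate 3), Id1 and Grem1 (4T07 replicate 1, 4T07 replicate 2 or 4T1 replicate 1), Bmp8a (any of 3 libraries) and Bmpr1b (any of 4), and Bmp8a and Bmpr1b were also lost in DESeq2.

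The other members followed in every group are given for lungs in the same way, as mean ± SD over 3 libraries in the order control, 67NR, 4T07 and 4T1. Tgfb2 was at 149 ± 1.99, 162 ± 20.7, 53.3 ± 19.8 and 151 ± 11.6 CPM, and Tgfb3 at 16.1 ± 1.19, 20.5 ± 3.39, 7.07 ± 2.28 and 11.9 ± 0.783 CPM. Bmp2 was at 17.1 ± 2.54, 20.2 ± 2.70, 13.0 ± 1.30 and 14.6 ± 0.505 CPM, and Bmp4 at 175 ± 60.3, 276 ± 51.2, 116 ± 42.5 and 239 ± 38.2 CPM. Gdf15 was at 6.12 ± 1.82, 6.15 ± 1.47, 5.43 ± 0.985 and 6.33 ± 1.51 CPM. In each receptor and target below, the 4T07 mean was the lowest of the 4 groups. Tgfbr1 was at 65.3 ± 9.27, 52.2 ± 6.27, 29.3 ± 2.26 and 47.4 ± 4.98 CPM, Tgfbr2 at 104 ± 15.6, 89.5 ± 2.58, 40.0 ± 7.14 and 79.9 ± 11.9 CPM, and Tgfbr3 at 39.4 ± 4.56, 51.5 ± 3.25, 23.1 ± 5.50 and 33.6 ± 8.53 CPM. Smad6 was at 77.0 ± 8.51, 93.7 ± 12.5, 16.1 ± 7.18 and 70.0 ± 12.5 CPM, and Smad7 at 66.1 ± 13.9, 87.8 ± 8.33, 39.5 ± 8.08 and 63.0 ± 7.48 CPM. Id1 was at 154 ± 11.0, 145 ± 12.4, 60.3 ± 19.3 and 131 ± 15.1 CPM, Id3 at 149 ± 9.81, 181 ± 43.4, 57.8 ± 8.42 and 135 ± 20.5 CPM, and Id4 at 21.1 ± 5.61, 42.4 ± 4.08, 19.0 ± 9.30 and 20.9 ± 1.52 CPM. Of the antagonists, Fst and Grem1 were low in lungs and Nog was near the floor. Fst was at 2.71 ± 0.796, 4.99 ± 2.32, 1.91 ± 0.369 and 2.07 ± 0.983 CPM, Grem1 at 0.747 ± 0.371, 1.57 ± 1.03, 3.23 ± 0.922 and 1.49 ± 0.340 CPM, and Nog at 0.108 ± 0.187, 0.118 ± 0.103, 0.139 ± 0.121 and 0.288 ± 0.283 CPM.

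In spleens, few members changed with 67NR and about as many with 4T07 as with 4T1. Against control spleens, 1 of 47 tested members passed in 67NR (2.13%, against 2.26% of all genes). In 4T07, 3 were higher (6.38%, against 8.26%) and 6 lower (12.8%, against 10.3%), and in 4T1, 3 were higher (6.38%, against 9.84%) and 7 lower (14.9%, against 10%). These shares lie near those of all genes. The median log2 fold change over tested members was -0.47 and -0.46 in 4T07 and 4T1, beside -0.09 and -0.10 over all genes. The 11 members left untested were Bmp5, Bmp10, Bmp15, Bmpr1b, Chrd, Gdf1, Gdf2, Gdf5, Gdf7, Inhbc and Inhbe.

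Inhba led the rises in spleens too, at 6.21, 2.77 and 2.59 CPM in control, 6.49, 6.13 and 5.61 CPM in 67NR, 31.1, 31.2 and 33.5 CPM in 4T07 and 18.2, 13.0 and 24.0 CPM in 4T1 spleens. Its log2 fold change was 3.19 ± 0.31, adjusted p = 2.58e-06, in 4T07 and 2.48 ± 0.31, adjusted p = 2.26e-05, in 4T1, and every spleen of both groups lay above every control and 67NR spleen. Neutrophil markers (7 of 7 detected) summed to 24055 to 29426 CPM in 4T07, 12348 to 32103 CPM in 4T1 and 981 to 1717 CPM in control spleens. Of the 4T1 spleens, replicate 2 was lowest in both Inhba and these markers, whereas replicate 1 was highest in the markers but not in Inhba. The part of neutrophils in the rise of Inhba was not tested. Gdf3 was at 1.36, 1.38 and 3.67 CPM in control, 4.74, 5.00 and 5.44 CPM in 4T07 and 5.27, 6.12 and 4.34 CPM in 4T1 spleens (1.41 ± 0.36, adjusted p = 0.00886, and 1.54 ± 0.36, adjusted p = 0.00446). Tgfb1 was at 15.3, 18.5 and 19.2 CPM in control, 24.9, 29.1 and 15.9 CPM in 67NR, 25.3, 35.2 and 36.4 CPM in 4T07 and 19.4, 26.2 and 14.4 CPM in 4T1 spleens. It passed in 4T07 (1.05 ± 0.25, adjusted p = 0.00548), a call lost without control replicate 1, 4T07 replicate 2 or 4T07 replicate 3, and in 4T1 its log2 fold change was 0.43 ± 0.26, adjusted p = 0.228. Bmp8b passed in 4T1 (2.02 ± 0.80, adjusted p = 0.0723) on 3 counts in control spleens, with a count ratio of 3.73 (95% interval 0.959 to 21.1), and was lost in DESeq2, with no count filter and without 5 of the 6 libraries.

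Among the falls, Id4 was at 33.2, 25.6 and 17.9 CPM in control, 22.4, 15.8 and 14.8 CPM in 67NR, 10.9, 6.21 and 5.44 CPM in 4T07 and 8.63, 7.35 and 6.40 CPM in 4T1 spleens (-1.60 ± 0.28, adjusted p = 5.71e-04, and -1.53 ± 0.29, adjusted p = 7.89e-04). Gdf6 was at 22.1, 23.3 and 19.2 CPM in control, 25.5, 19.7 and 14.4 CPM in 67NR, 9.68, 7.08 and 7.16 CPM in 4T07 and 9.11, 5.39 and 10.3 CPM in 4T1 spleens (-1.26 ± 0.27, adjusted p = 0.00228, and -1.12 ± 0.27, adjusted p = 0.00496). In both genes the 4T07 and 4T1 spleens lay below the controls. Tgfb2 also fell in both (-1.17, adjusted p = 0.0361 in 4T07 and -1.30 (adjusted p = 0.0229) in 4T1), from 5.83, 7.38 and 10.1 CPM in control spleens. Bmp2 was at 22.5, 23.3 and 35.1 CPM in control, 15.6, 14.2 and 12.6 CPM in 4T07 and 9.83, 11.8 and 8.00 CPM in 4T1 spleens (-1.20 ± 0.21, adjusted p = 4.29e-04, in 4T1 and -0.75 ± 0.20, adjusted p = 0.011, in 4T07). Smad5 was at 124, 114 and 114 CPM in control, 60.9, 74.0 and 52.4 CPM in 4T07 and 36.2, 53.1 and 43.9 CPM in 4T1 spleens (-1.15 ± 0.19, adjusted p = 2.20e-04, in 4T1). The spleens of both groups lay below the controls in Bmp2 and Smad5 alike. Bmp3 fell in 4T1 (-1.76, adjusted p = 0.0098), and Gdf15 (-1.20, adjusted p = 0.0232), Acvr1c (-1.40, adjusted p = 0.0966) and Smad9 (-3.01, adjusted p = 0.0442) fell in 4T07, Smad9 on 1 against 12 counts with a ratio of control to 4T07 of 12.0 (95% interval 1.78 to 514). In 4T07, Acvr1c and Smad9 were lost in DESeq2, Acvr1c without 4 of the 6 libraries, Smad9 without control replicate 1 or 4T07 replicate 1, and Tgfb2 without control replicate 3 or 4T07 replicate 1. In 4T1, Gdf6 was lost without 4T1 replicate 2 and Tgfb2 without 4T1 replicate 1. Nog passed in 4T1 (adjusted p = 0.0528) on 0 against 8 counts, within the floor, so no fold is given, and was lost in DESeq2 and without 5 of the 6 libraries. In 67NR spleens the call was Id1, at 41.4, 44.5 and 41.2 CPM in control and 20.9, 25.3 and 20.2 CPM in 67NR spleens (-1.03 ± 0.17, adjusted p = 0.00914), lost without 67NR replicate 3. In 4T1 against 4T07 spleens the call was Acvr2b (1 of 47, 2.13%, against 2.33% of all genes), at 5.15, 6.73 and 5.44 CPM in 4T07 and 2.40, 2.20 and 2.51 CPM in 4T1 spleens (-1.20 ± 0.31, adjusted p = 0.0551), lost without 5 of the 6 libraries. B cell markers (5 of 5 detected) summed to 402 to 479 CPM in 4T07, 283 to 494 CPM in 4T1 and 1164 to 1623 CPM in control spleens. In the same order, T cell markers summed to 106 to 135, 105 to 134 and 242 to 334 CPM. Endothelial markers summed to 261 to 284, 198 to 322 and 464 to 636 CPM. Macrophage and mesothelial markers were also lower in both groups, and neutrophil, platelet and erythroid markers were higher. The part of these markers in the falls was not tested.

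The remaining followed members are given for spleens as mean ± SD over 3 libraries, in the order control, 67NR, 4T07 and 4T1. Tgfb2 was at 7.78 ± 2.18, 6.60 ± 2.15, 3.03 ± 1.03 and 2.64 ± 1.53 CPM, and Tgfb3 at 3.19 ± 1.28, 2.63 ± 0.552, 3.07 ± 1.53 and 3.48 ± 0.939 CPM. Bmp2 was at 27.0 ± 7.07, 34.0 ± 1.65, 14.1 ± 1.52 and 9.86 ± 1.88 CPM, and Bmp4 at 15.0 ± 4.01, 17.0 ± 5.59, 7.37 ± 2.03 and 7.95 ± 2.51 CPM. Gdf15 was at 6.07 ± 2.25, 5.41 ± 1.53, 2.29 ± 0.293 and 4.29 ± 1.19 CPM. None of the 5 receptors that follow passed. Tgfbr1 was at 40.8 ± 5.96, 43.8 ± 5.21, 22.8 ± 3.32 and 24.8 ± 4.23 CPM, Tgfbr2 at 45.4 ± 12.2, 36.2 ± 5.27, 29.1 ± 12.3 and 29.7 ± 4.21 CPM, and Tgfbr3 at 19.3 ± 5.69, 17.3 ± 8.80, 12.5 ± 3.69 and 12.6 ± 1.35 CPM. Bmpr2 was at 53.2 ± 2.78, 51.1 ± 7.36, 35.4 ± 4.59 and 30.1 ± 1.79 CPM, and Acvrl1 at 16.4 ± 2.19, 13.7 ± 2.16, 9.23 ± 1.22 and 13.2 ± 1.65 CPM. Of the targets, Smad6, Id2, Id3 and Id4 had their highest mean in control spleens, and Smad7 and Id1 did not. Smad6 was at 3.58 ± 1.01, 2.90 ± 0.172, 1.30 ± 0.913 and 1.99 ± 1.48 CPM, and Smad7 at 18.1 ± 1.93, 20.8 ± 1.27, 13.7 ± 2.76 and 14.8 ± 3.33 CPM. Id1 was at 42.4 ± 1.88, 22.1 ± 2.76, 24.5 ± 3.18 and 43.6 ± 5.32 CPM, Id2 at 211 ± 37.8, 138 ± 12.8, 102 ± 15.1 and 108 ± 4.68 CPM, and Id3 at 75.8 ± 20.1, 48.1 ± 1.82, 39.9 ± 13.0 and 52.6 ± 10.5 CPM. Fst was at 0.837 ± 0.329, 1.07 ± 0.192, 1.14 ± 0.1001 and 0.397 ± 0.279 CPM, Grem1 at 8.12 ± 1.27, 8.73 ± 2.03, 5.84 ± 1.09 and 4.16 ± 1.92 CPM, and Nog at 0.562 ± 0.303, 0.779 ± 0.318, 0.115 ± 0.199 and 0 CPM.

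**Figure D4:**
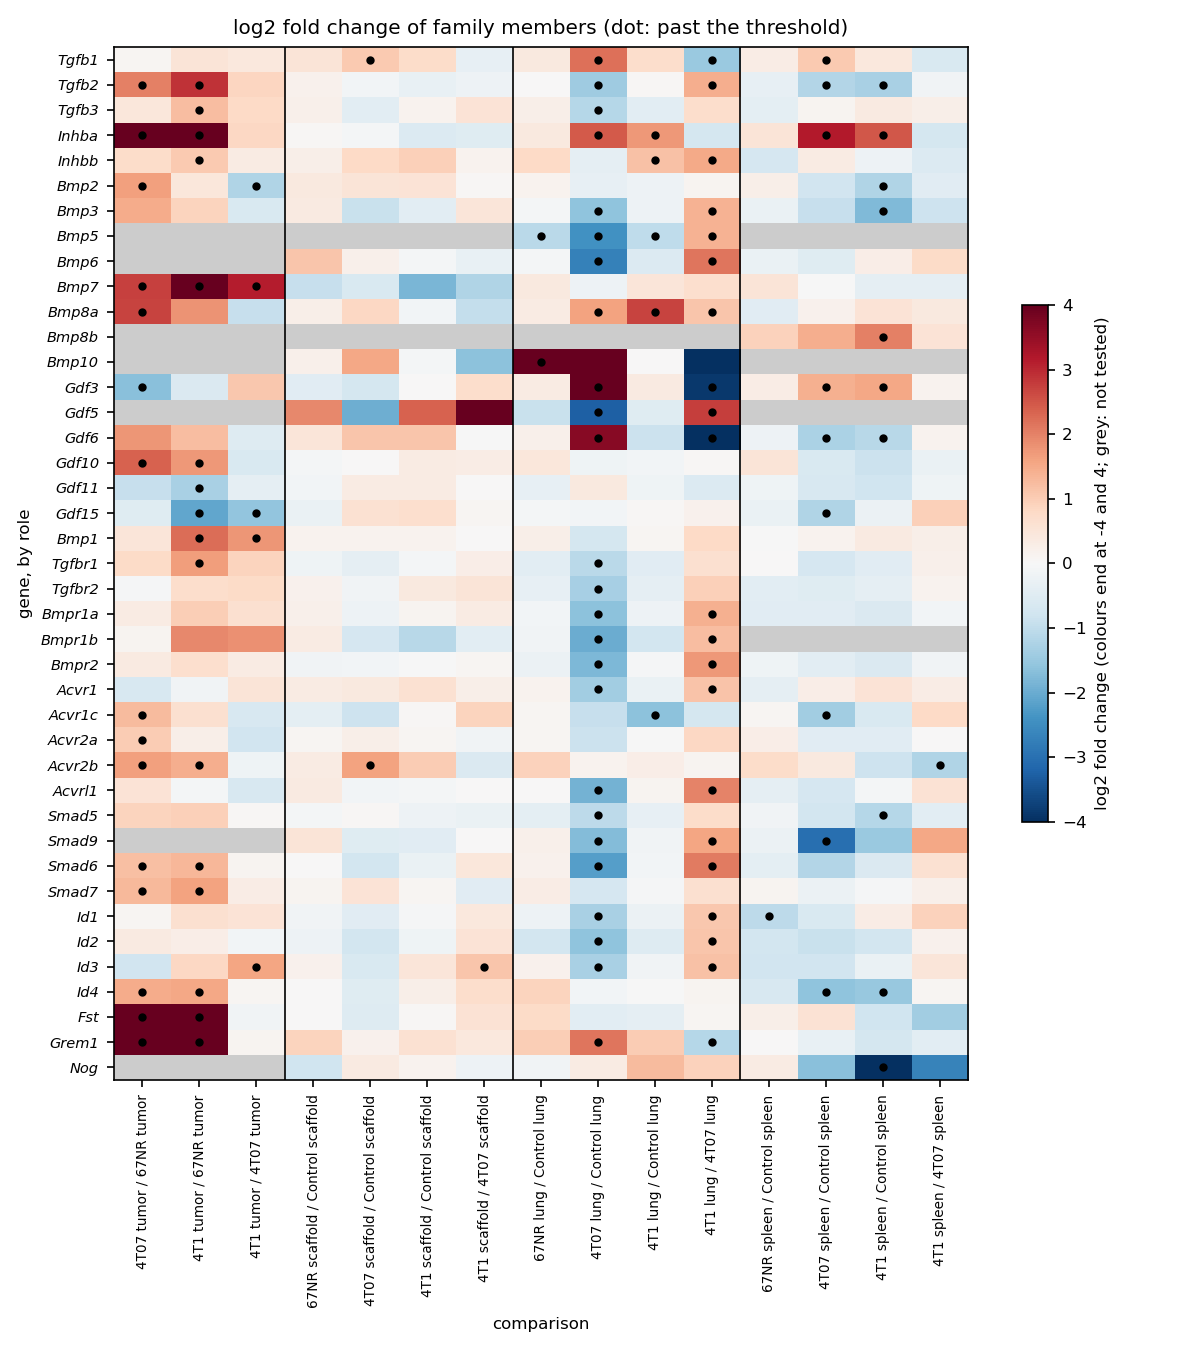
Log2 fold change of 41 members past the threshold in at least 1 comparison of tumors or of host tissues with tumor, as a heat map over 15 comparisons with a dot where the threshold was passed, colours ending at -4 and 4, and grey for genes not tested. Inhba is high in 4T07 and 4T1 against 67NR tumors and against control lungs and spleens but not against control scaffolds. The column of 4T07 against control lungs holds more falls past the threshold than any other. These falls are on the TMM scale, and many of them turned positive when scaled to lung-restricted genes.

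Inhba responded to 4T1 tumors differently by tissue. The log2 fold change of 4T1 against control was -0.55 ± 0.17, adjusted p = 0.25, in scaffolds, 1.75 in lungs and 2.48 in spleens. In scaffolds it was at 41.1, 43.2 and 33.7 CPM in control, 46.0, 37.9 and 44.1 CPM in 67NR, 40.6, 37.7 and 44.9 CPM in 4T07 and 27.8, 26.7 and 32.3 CPM in 4T1 mice, so the 4T1 scaffolds lay below all others. An interaction test in edgeR over all 36 scaffold, lung and spleen libraries gave a difference of -2.28 ± 0.41, adjusted p = 8.10e-04, between scaffold and lung and -3.04 ± 0.43, adjusted p = 1.49e-05, between scaffold and spleen, and both held in every planned fit. Scaffolds had the highest control level, and 4T1 lungs and spleens at their highest, 23.7 and 24.0 CPM, stayed below every control scaffold.

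Over the whole family, 2 of 54 tested members passed the interaction between scaffold and lung (3.7%, against 0.986% of all genes), 9 between scaffold and spleen (16.7%, against 10.7%) and 7 between lung and spleen (13.0%, against 11.5%). Apart from Inhba, Bmp8a rose more in lung than in scaffold (-2.81 ± 0.68, adjusted p = 0.0296) and than in spleen (2.15 ± 0.74, adjusted p = 0.0536). Control lungs read Bmp8a near the floor, so the size of its rise there is uncertain. Acvr2b (1.84 ± 0.41, adjusted p = 0.0026) and Bmp2 (1.75 ± 0.33, adjusted p = 4.97e-04) had a higher log2 fold change in scaffold than in spleen. No member passed in 4T1 against control scaffolds. The other members with a difference between scaffold and spleen were Gdf6, Id4, Gdf10, Inhbb, Gdf11 and Gdf3. The log2 fold change of 4T1 against control, not the level, was higher in scaffold for all of them but Gdf3, where it was higher in spleen. Gdf6 was near the floor in control scaffolds. Between lung and spleen, Bmp3, Id4, Inhbb, Tgfb2, Acvr2b and Nog each had the higher log2 fold change in lung, Nog on few counts.

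**Figure D5:**
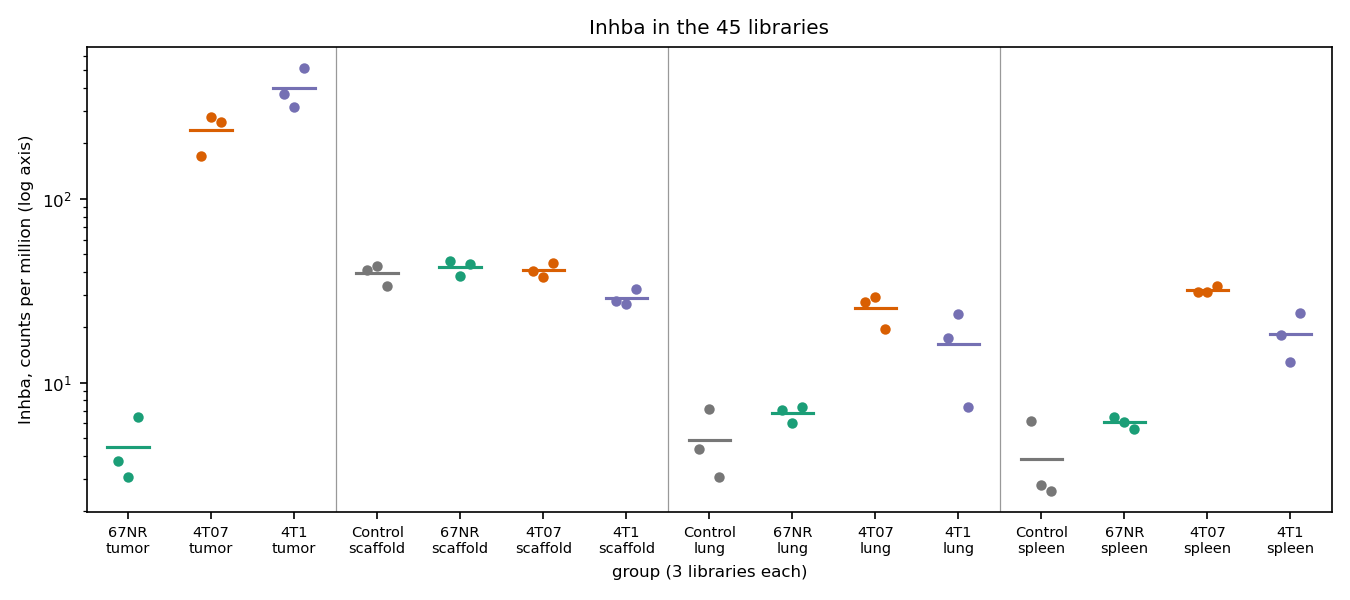
Inhba level in CPM on a log axis in all 45 libraries, by tissue and group, with 1 point per library and a bar at the mean of 3 libraries. The 4T07 and 4T1 tumors sit between 172 and 513 CPM and all scaffolds between 26.7 and 46.0 CPM. Lungs and spleens lie under 8 CPM in control and 67NR mice and reach as much as 33.5 CPM with 4T07 or 4T1 tumors. The lung of 4T1 replicate 3 also lies under 8 CPM.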

How the data were processed

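Scaffolds, lungs, spleens and primary tumors were profiled by 3' tag RNA sequencing with unique molecular identifiers. The authors deposited raw read counts per gene symbol, and the processing notes in the labels name Trim Galore 0.5.0, STAR 2.6.0 and featureCounts. The genome build, annotation, strand setting and use of the molecular identifiers are not given in the sources used here, so antisense or overlapping genes may share counts. Library totals are given with the results and set the counting error.

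Its 55487 lines were summed by symbol, which merged 120 repeats and left 55367 symbols. No column was left unmapped. Of 45 replicate pairs, 0 were identical, with a lowest chi-square per gene of 3.53. Groups were taken from the labels. For each tissue, genes with more than 10 counts over its libraries entered edgeR 4.0.16 (R 4.3.3, TMM normalization, quasi-likelihood F-test) with all groups in 1 model, and p-values were adjusted over all genes tested by the Benjamini-Hochberg method. A gene was called at an adjusted p under 0.05 in tumors and 0.10 elsewhere with a fold change over 2. Control tissues were fitted together, and differences between tissues in log2(4T1/control) were tested in 1 model of the 36 host libraries. Alternatives were DESeq2 1.42.0, its size factors in edgeR, no count filter and each library left out, and scaling to lung-restricted genes was added after the data had been seen. In simulated data with 200 genes changed 4-fold, edgeR recovered 97% of them in the 4T1 against 67NR tumor design (20508 genes) and 100% in the 4T1 against control lung design (21937 genes). Of the calls, 7.18% and 5.66% were unchanged genes, and 11.3% were in the 4T07 against control scaffold design. The shares in the tumor and scaffold designs, 7.18% and 11.3%, lay above the adjusted p limits of 0.05 and 0.10. The changed genes were drawn from those with higher mean counts, so recovery near the floor was not tested. All groups were drawn from 1 mean profile with few genes changed. Large shifts between groups, such as those of 4T07 lungs, were therefore not tested either.

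The members and lists were chosen with earlier results of these data known. Every called member is named except 1 that, like 1 other pathway gene, is not reported here by name but enters the counts, and 21 members are given at their level in each group whatever they do. Promoter windows of 40 of the 58 members were matched by symbol in a RefSeq promoter table of GRCm38.p6.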

Additional observations from a re-analysis of the deposited data

Results flagged for a closer look

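The difference between tissues in the log2 fold change of 4T1 against control was tested in edgeR with all 36 scaffold, lung and spleen libraries, and 18 such differences passed at an adjusted p under 0.10 and a size over 1. Each compares 3 libraries with 3 in each tissue.

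Between scaffold and lung, Inhba differed by -2.28 (adjusted p = 8.10e-04), with log2 fold changes of -0.55 in scaffold and 1.75 in lung. Bmp8a, a BMP ligand gene, differed by -2.81 (adjusted p = 0.0296), from -0.11 and 2.72, and was lost without control lung replicate 2. Control lungs read Bmp8a near the floor, so the size of this difference is uncertain.

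Between scaffold and spleen, Inhba differed by -3.04 (adjusted p = 1.49e-05), with 2.48 in spleen, and Gdf3 by -1.54 (adjusted p = 0.019), from 0.01 in scaffold and 1.54 in spleen. The differences of the remaining members were positive, with a higher log2 fold change in scaffold. They were 2.20 for Gdf6 (adjusted p = 0.00747), 1.84 for Acvr2b (adjusted p = 0.0026), 1.76 for Id4 (adjusted p = 0.0431) and 1.75 for Bmp2 (adjusted p = 4.97e-04). Smaller differences were 1.18 for Gdf10 (adjusted p = 0.00674), 1.17 for Inhbb (adjusted p = 0.0803) and 1.13 for Gdf11 (adjusted p = 0.0286). In spleen the log2 fold changes were -1.12 for Gdf6, -0.82 for Acvr2b, -1.53 for Id4, -1.20 for Bmp2, -0.85 for Gdf10, -0.21 for Inhbb and -0.81 for Gdf11. In scaffold they lay between 0.24 for Id4 and 1.10 for Gdf6, and none of them passed against control scaffolds. Gdf6 was near the floor in control scaffolds. Leaving out 1 library ended the calls of Gdf11 (control spleen replicate 3), Id4 (any of 3 libraries) and Inhbb (any of 7).

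Between lung and spleen, all 7 differences were positive, with the higher log2 fold change in lung. They were 2.15 for Bmp8a (adjusted p = 0.0536), 1.53 for Bmp3 (adjusted p = 0.026), 1.51 for Id4 (adjusted p = 0.0629), 1.35 for Inhbb (adjusted p = 0.0471), 1.32 for Tgfb2 (adjusted p = 0.0402) and 1.05 for Acvr2b (adjusted p = 0.082). Bmp3 (-1.76 in spleen and -0.21 in lung) and Tgfb2 (-1.30 and 0.03) fell in spleen. Nog differed by 5.88 (adjusted p = 0.0527), a fitted value on 0 counts in the 4T1 spleens that gives no size of change. Each of the 7 was lost when at least 1 library was left out.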

How the results depend on the processing

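Over the named calls, direction and call were kept in 210 and the call lost in 15 under DESeq2, 224 and 1 under its size factors and 219 and 6 with no count filter. With 1 library left out, 1285 fits kept them and 171 lost the call, and none of these settings turned a direction. Of the counts of members past the threshold, that in 4T1 scaffolds moved from 0 to 1 in DESeq2 and to 2 with no count filter, and that in 67NR lungs from 2 to 1 in DESeq2. Scaling to lung-restricted genes, chosen after the data had been seen, moved the count in 4T1 lungs from 5 to 3. The cause of these shifts was not tested.

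With that scaling, log2 fold changes turned positive in 4T07 against control lungs for Acvr1 (0.26), Bmp3 (0.0293), Bmpr1a (0.0717), Id1 (0.37), Id2 (0.16), Id3 (0.42), Smad5 (0.64), Tgfb2 (0.21), Tgfb3 (0.56), Tgfbr1 (0.65) and Tgfbr2 (0.39). In 4T1 against 4T07 lungs they turned negative for Acvr1 (-0.29), Bmp3 (-0.0194), Bmp5 (-0.0376), Bmp8a (-0.41), Bmpr1a (-0.0533), Bmpr1b (-0.15), Id1 (-0.37), Id2 (-0.44) and Id3 (-0.32).

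With 1 library left out, the counts ranged from 11 to 17 in 4T07 and 16 to 18 in 4T1 against 67NR tumors and from 5 to 6 between 4T1 and 4T07 tumors. In scaffolds they ranged from 1 to 2 in 4T07, with 1 without control replicate 1, and from 0 to 1 between 4T1 and 4T07. In lungs they ranged from 1 (without control replicate 1 or 2 or 67NR replicate 3) to 3 in 67NR, 24 to 27 in 4T07, 4 to 6 in 4T1 and 18 to 25 between 4T1 and 4T07. In spleens they ranged from 0 (without 67NR replicate 3) to 2 (without control replicate 3) in 67NR, 8 to 10 in 4T07, 7 to 10 in 4T1 and 0 to 1 between 4T1 and 4T07. Between control tissues the ranges were 26 to 30, 25 to 30 and 31 to 35. For differences between tissues they were 1 (without control lung replicate 2) to 3 for scaffold and lung, 8 to 11 for scaffold and spleen and 1 (without 4T1 spleen replicate 3) to 9 for lung and spleen, with 2 to 4 also without 5 further libraries.

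No paired analysis was possible because the labels do not say which libraries came from the same mouse, and a replicate number is only a name. Members near 3 counts per library, such as Nog, Gdf2 and Bmp8b, are limited by depth, and a change in them was not measurable here.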
